A study of Mus musculus with 12 samples.

Results

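The Wnt pathway genes described here are the Wnt ligands, their frizzled receptors (Fzd) and Lrp co-receptors, the secreted antagonists of the Sfrp and Dkk families, and the proteins that carry the signal inside the cell, chosen by gene symbol and not by their values. Of 51 mouse symbols that match the rule, 49 had probes on the arrays, out of 25128 genes and unnamed targets measured. Fzd9 and the non-coding RNA Fzd10os were not analysed here. The 49 genes are 19 ligands, 9 frizzled receptors, 2 co-receptors, 8 antagonists, 3 dishevelled proteins (Dvl), 3 proteins of the destruction complex, beta-catenin (Ctnnb1) and 4 nuclear factors, each measured by 3 probes. RNA came from 3 mouse cell lines grown in serum-containing medium with no treatment, with 4 separately grown plates per line and 1 single-color NimbleGen array per plate. AtT20 is a neuroendocrine line from a pituitary tumor, BV2 a microglial line kept in a state near rest, and N18 a neuroblastoma line, and each serves as a model of its cell type only as a cultured line. In bulk RNA of this kind, fewer cells with a transcript and less transcript per cell cannot be told apart.

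In Wnt signaling, a secreted Wnt protein binds a frizzled receptor, often together with Lrp5 or Lrp6, and dishevelled passes the signal on. In the branch that runs through beta-catenin, a destruction complex built on Axin and Apc keeps beta-catenin low until a Wnt arrives, after which beta-catenin enters the nucleus and acts with the DNA-binding factors Lef1, Tcf7, Tcf7l1 and Tcf7l2. Sfrp proteins bind Wnts outside the cell and Dkk1 blocks the Lrp co-receptors, and the pathway is known for its part in neural crest, brain and pituitary development.

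The DNA letters that Lef1 and the Tcf factors prefer, CTTTGAT and CTTTGAA, were searched on both strands in the 300 bases around each annotated start (250 before and 50 after). RefSeq windows (build GRCm38.p6) were matched for 33 of the 49 genes. Either set of letters was in the windows of 3 of these 33 genes (9.09%), namely Dkk1, Wnt11 and Wnt5b, and in those of 9.88% of all 27025 genes in the table, so the share was close to the background. The windows of Dkk1 and Wnt11 are shown because both genes were higher in N18 than in BV2, with the letters in capitals, and the window of Axin2, which was also higher in N18, is shown beside them without a match. The letters start at position -117 from the start in Dkk1 (chr19:30549447-30549746, minus strand) and at -51 in Wnt11 (chr7:98834862-98835161, plus strand), where they lie on the opposite strand and read ATCAAAG, and the Axin2 window is chr11:108920099-108920398, plus strand. A match of letters describes the window and is not evidence of binding.
Dkk1: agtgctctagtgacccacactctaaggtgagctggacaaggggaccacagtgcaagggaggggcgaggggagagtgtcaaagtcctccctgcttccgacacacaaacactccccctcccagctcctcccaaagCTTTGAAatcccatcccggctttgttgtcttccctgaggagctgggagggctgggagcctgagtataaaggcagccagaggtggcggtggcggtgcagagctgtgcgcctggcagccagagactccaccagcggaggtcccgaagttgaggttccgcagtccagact
Wnt11: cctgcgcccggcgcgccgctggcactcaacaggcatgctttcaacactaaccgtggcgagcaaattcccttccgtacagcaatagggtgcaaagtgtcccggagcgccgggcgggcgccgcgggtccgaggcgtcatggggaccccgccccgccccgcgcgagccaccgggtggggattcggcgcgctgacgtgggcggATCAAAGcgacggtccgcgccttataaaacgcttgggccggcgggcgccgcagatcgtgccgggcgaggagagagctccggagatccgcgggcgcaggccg
Axin2: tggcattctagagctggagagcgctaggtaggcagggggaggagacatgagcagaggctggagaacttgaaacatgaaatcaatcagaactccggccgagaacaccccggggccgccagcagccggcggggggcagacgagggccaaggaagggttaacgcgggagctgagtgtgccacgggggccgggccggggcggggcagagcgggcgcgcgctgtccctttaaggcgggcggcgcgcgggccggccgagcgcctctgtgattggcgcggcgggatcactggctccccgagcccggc

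The level of a gene was its log2 intensity on a plate less the mean of the 10 seminal proteins there, and a gene counted as detected in a line when its mean level over the 4 plates exceeded 2 SD of those proteins. The thresholds of AtT20, BV2 and N18 were 0.37 ± 0.11, 0.56 ± 0.15 and 0.74 ± 0.10 (SD, n = 4 plates each). The plates labelled AtT20 stood apart from the others. The interquartile range of their arrays was 0.38 to 0.78, against 1.28 to 1.73 in BV2 and 1.91 to 2.21 in N18, and replicate arrays correlated at 0.896 to 0.959, against at least 0.976 in the other lines. Of 8 corticotroph markers, including Pomc, none was detected on the AtT20-labelled plates, while 2 were in BV2 (Pomc and Tbx19) and 5 in N18 (Tbx19, Crhr1, Chga, Chgb and Scg2). The mean level of these 8 was 0.03 to 0.11 on the AtT20-labelled plates, 0.22 to 0.25 in BV2 and 2.08 to 2.27 in N18. In N18 the highest levels were those of Crhr1, Chga, Chgb and Scg2 (3.16, 3.14, 5.78 and 3.98). Pomc, Pcsk1 and Neurod1 were below the threshold there (0.54, -0.16 and -0.61). Of 9 microglia and macrophage markers 8 were detected in BV2, 2 in N18 and none on the plates labelled AtT20, and of 12 neuroblast and neuron markers 11 were detected in N18, 8 on the plates labelled AtT20 and 6 in BV2. The mean level of the microglia markers was 3.55 to 4.16 on the BV2 plates, -0.06 to 0.03 on the AtT20-labelled and 0.27 to 0.36 on the N18 plates, and that of the neuronal markers 2.61 to 2.94 in N18, 0.80 to 1.52 in AtT20 and 0.50 to 0.65 in BV2. Of 5 fibroblast markers 3, 2 and 3 were detected in AtT20, BV2 and N18, and of 4 epithelial markers 2, 2 and 3. The BV2 and N18 plates therefore carried the markers of their labels, and the plates labelled AtT20 lacked the defining markers of theirs. The part of these features in the comparisons with AtT20 was not tested.

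Beta-catenin and both co-receptors were detected in each of the 3 lines, while most of the ligands and antagonists detected were found in some lines and not in others. On the plates labelled AtT20 24 of the 49 genes passed (49.0%, against 35.0% of all genes and targets), 16 in BV2 (32.7%, against 53.3%) and 27 in N18 (55.1%, against 55.4%). In BV2 the share of Wnt pathway genes was below that of all genes, while the other shares were above or near it. With olfactory receptor genes as controls, 16 of the 49 passed on the plates labelled AtT20 (32.7%, against 22.2% of all genes and targets), 9 in BV2 (18.4%, against 31.3%) and 21 in N18 (42.9%, against 37.9%). The 10 genes detected in the 3 lines were Ctnnb1, both co-receptors Lrp5 and Lrp6, Dvl2 and Dvl3, the receptors Fzd2 and Fzd10, the nuclear factors Tcf7l1 and Tcf7l2, and the ligand Wnt7a. Of the 19 ligands, 8 were detected on the plates labelled AtT20 (Wnt1, Wnt2b, Wnt4, Wnt5a, Wnt6, Wnt7a, Wnt7b and Wnt11), 4 in N18 (Wnt3, Wnt7a, Wnt9a and Wnt11) and 1 in BV2 (Wnt7a). Of the 9 frizzled receptors, 6, 4 and 7 were detected in AtT20, BV2 and N18. Of the 8 antagonists, Sfrp5 was detected in AtT20 and BV2, and Dkk1, Dkk3 and Sfrp2 in N18. A further 13 genes, 9 ligands and the antagonists Dkk2, Dkk4, Sfrp1 and Sfrp4, were detected in none of the lines, with levels of -0.06 to 0.33 in AtT20, -0.44 to 0.47 in BV2 and -0.56 to 0.53 in N18. Some detections rested on 1 of the 3 probes, among them Fzd10 in each line, Wnt7a in BV2 and on the plates labelled AtT20, and Wnt9a in N18. Of the detected genes, 8 in AtT20, 5 in BV2 and 3 in N18 had at most 1 probe above the threshold. On fewer than 4 plates, 7, 4 and 0 of the detected genes were above it. Among the ligands on the plates labelled AtT20, Wnt1, Wnt5a, Wnt7a and Wnt7b had at most 1 probe above it. There Wnt2b, Wnt4, Wnt6, Wnt7a and Wnt7b were above it on fewer than 4 plates. Wnt7a, the ligand detected in BV2, was above it on 3 of 4 plates there, at a mean level of 0.59. Below these thresholds a low level cannot be told from background.

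**Figure D1:**
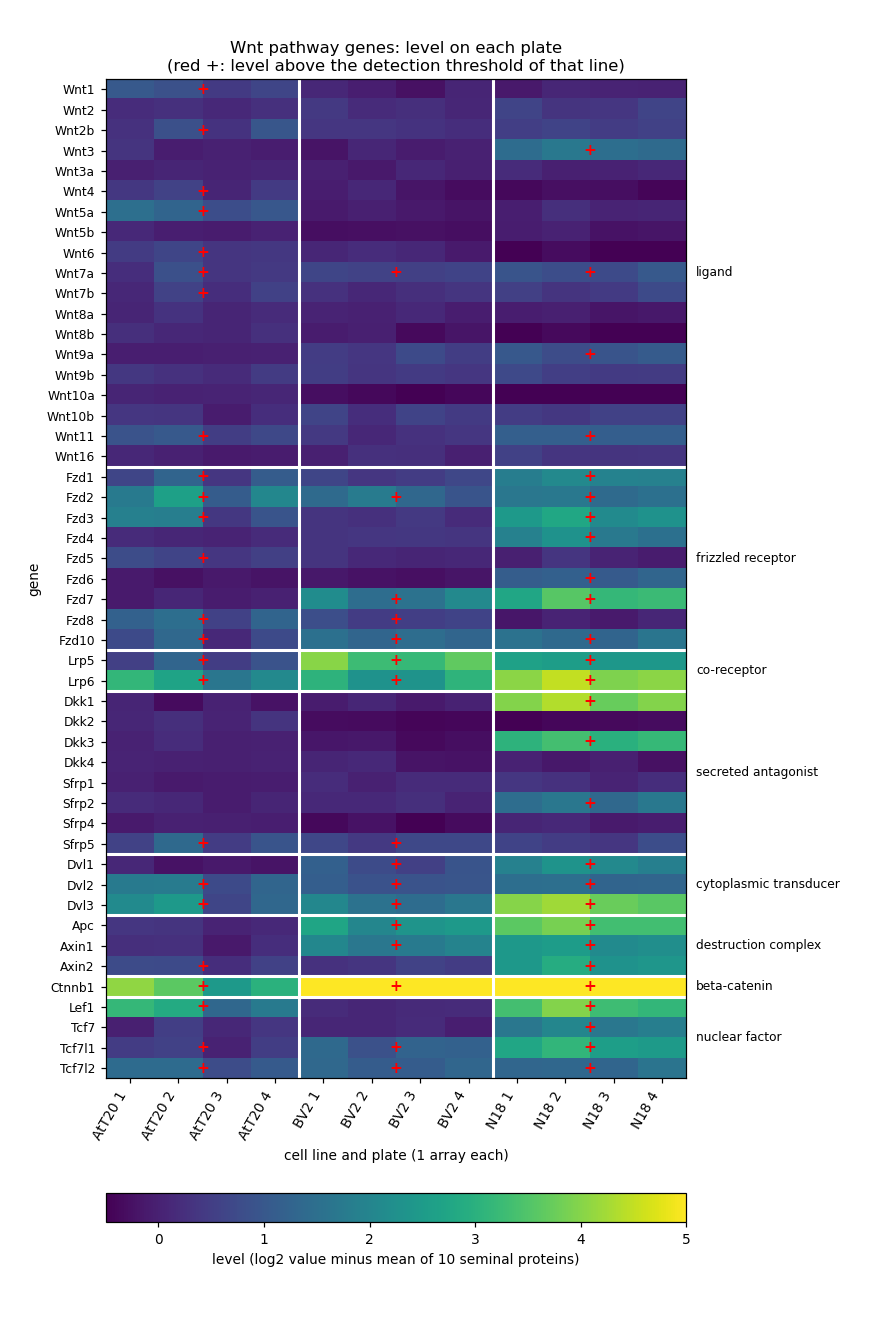
Level of each of the 49 genes (rows, grouped by role) on each of the 12 plates (columns), as log2 intensity minus the mean of 10 seminal proteins, with colors capped at -0.5 and 5. A red plus marks the 24, 16 and 27 genes above the threshold in AtT20, BV2 and N18, and the upper rows show 1 ligand marked in BV2.

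Between N18 and BV2, the largest differences called were those of the antagonists Dkk1 and Dkk3 and the nuclear factor Lef1, which were higher in N18, and the largest toward BV2 was that of the co-receptor Lrp5. A gene was called higher in a line when the adjusted p in limma was under 0.05 over all 25128 genes and targets and the gene was detected in that line, on log2 values after quantile normalization of the 12 arrays. Of the 49 genes, 18 were called higher in N18 (36.7%, against 21.2% of all genes and targets) and 5 higher in BV2 (10.2%, against 23.0%). The same 18 were also called without normalization and relative to the seminal proteins. So were all 5329 genes and targets called higher in N18 after quantile normalization, so keeping the call does not set the 18 apart. Without normalization 18 of the 49 were called higher in N18, beside 7732 of all 25128. Relative to the seminal proteins 22 were, beside 8379. Of the 5 called higher in BV2, only Lrp5 and Fzd8 kept the call under the 3 scalings (4.08%, against 6.89%). Among the calls of the 49 genes, N18 was the higher line in 78.3% after quantile normalization (48.0% over all genes and targets), 90% without it (81.1%) and 91.7% relative to the seminal proteins (80.1%). The median difference over the 49 genes was 0.04 on the log2 scale, beside -0.06 over all genes and targets. For 22 of the 23 calls the values of the plates did not overlap, and in 22 the 3 probes all differed in the same direction, with Fzd10 the exception in both.

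Among the secreted antagonists, Dkk1 and Dkk3 had the largest differences of the pathway genes called. On the normalized log2 scale Dkk1, which blocks the Lrp co-receptors, was 13.17, 13.25, 13.03 and 13.22 on the N18 plates 1 to 4, and 9.91, 10.16, 10.00 and 10.02 on the BV2 plates. All N18 plates lay above all BV2 plates, with a difference of 3.15 ± 0.09 (SE, adjusted p = 2.16e-12), or at least 6.2-fold, because Dkk1 was below the threshold in BV2. On the plates labelled AtT20 it was also below threshold, at 10.53, 9.67, 10.58 and 9.85. Dkk3, a divergent Dkk family member, was 12.23, 12.26, 12.28 and 12.41 in N18 and 9.85, 9.87, 9.79 and 9.74 in BV2. The groups did not overlap, and the difference was 2.48 ± 0.07 (adjusted p = 3.35e-12), or at least 3.4-fold. Dkk3 was 10.35, 10.71, 10.36 and 10.40 on the plates labelled AtT20, below their threshold on the same normalized scale (11.27). The 3 probes of Dkk1 had mean levels of 3.88, 4.46 and 3.52 in N18, so the signal did not rest on a single probe. Sfrp2, which binds Wnts, was 0.84 ± 0.07 higher in N18 than in BV2 (adjusted p = 2.43e-07), at least 1.3-fold since it was not detected in BV2. Sfrp5 was lower in N18 at -0.29 ± 0.07 (adjusted p = 0.0029), a call that was lost without normalization (-0.08, adjusted p = 0.732), and the other 4 antagonists were not called.

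Of the 4 nuclear factors, 3 were called higher in N18. Lef1, which recruits beta-catenin to DNA, had normalized values of 12.53, 12.90, 12.60 and 12.36 in N18 and 10.13, 10.15, 10.21 and 10.16 in BV2. N18 and BV2 did not overlap, and the difference was 2.44 ± 0.10 (adjusted p = 1.59e-10), or at least 4.2-fold. The plates labelled AtT20 had 13.65, 13.38, 13.13 and 12.97, the highest of the 3 lines on this scale but not relative to the seminal proteins, where the mean level was 2.29 ± 0.87 (SD, n = 4) against 3.44 ± 0.37 in N18. Tcf7, a factor of the same family known from T cells, was 11.07, 11.21, 11.18 and 11.25 in N18 and 10.07, 10.13, 10.23 and 9.96 in BV2, a difference of 1.08 ± 0.07 (adjusted p = 2.15e-08) with no overlap. It was 10.22, 11.16, 10.98 and 11.12 on the plates labelled AtT20, where plate 1 was the lowest and the gene was not detected. Tcf7 was not detected in BV2 either, so its difference between N18 and BV2 was at least 1.5-fold. Tcf7l1, known as a repressor of Wnt targets in stem cells, was 11.96, 12.07, 11.91 and 11.77 in N18, 11.06, 10.98, 11.23 and 10.99 in BV2 and 11.40, 11.28, 10.70 and 11.36 on the plates labelled AtT20. It was 0.86 ± 0.09 higher in N18 than in BV2 (adjusted p = 2.49e-06) with no overlap of plates. Tcf7l2, the remaining factor, was 10.80, 10.78, 10.89 and 11.05 in N18, 11.07, 11.22, 11.07 and 11.11 in BV2 and 12.11, 12.05, 12.42 and 12.12 on the plates labelled AtT20. Its difference between N18 and BV2 was small, -0.24 ± 0.08 (adjusted p = 0.02), and changed sign without normalization (0.14) and relative to the seminal proteins (0.17).

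**Figure D2:**
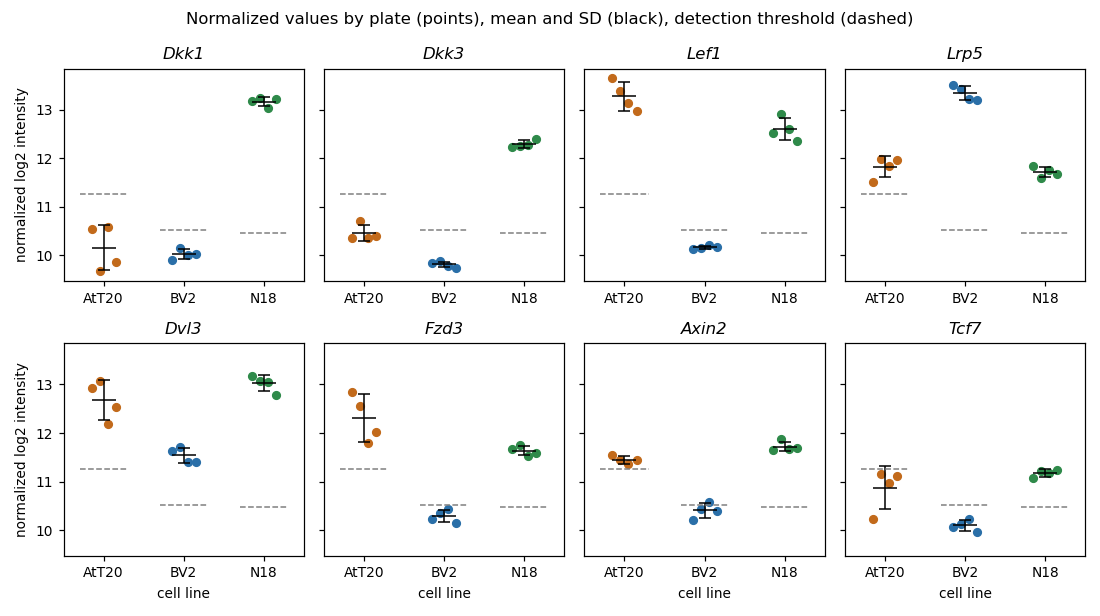
Normalized log2 intensity (vertical axis) of the 8 genes called between N18 and BV2 with a difference of at least 1, on 4 plates per line (points), with mean and SD (black) and the threshold of each line (dashed). The N18 and BV2 points are apart in each panel, from Dkk1 (a difference of 3.15) to Tcf7 (1.08), and Lrp5 is the panel in which BV2 is the higher.

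The co-receptors went in opposite directions. Lrp5 had normalized values of 13.51, 13.44, 13.23 and 13.21 in BV2, 11.84, 11.60, 11.76 and 11.68 in N18 and 11.52, 11.99, 11.85 and 11.97 on the plates labelled AtT20. Lrp5 was lower in N18 than in BV2, with a log2 difference of -1.63 ± 0.10 (adjusted p = 9.33e-09), a 3.09-fold difference with no overlap, and was 1.52 ± 0.15 higher in BV2 than on the plates labelled AtT20 (adjusted p = 6.22e-07). BV2 was thus the highest of the 3 lines for Lrp5. Lrp6, its close relative, was 13.29, 13.44, 13.28 and 13.30 in N18, 12.55, 12.46, 12.30 and 12.65 in BV2 and 13.59, 13.22, 13.39 and 13.30 on the plates labelled AtT20. All N18 plates lay above all BV2 plates, by 0.84 ± 0.10 (adjusted p = 6.81e-06).

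Among the frizzled receptors, 5 were called higher in N18 than in BV2 and 2 higher in BV2. Fzd3, known for its part in axon guidance, was 11.67, 11.75, 11.53 and 11.59 in N18, 10.24, 10.35, 10.43 and 10.15 in BV2 and 12.85, 12.56, 11.79 and 12.02 on the plates labelled AtT20. It was 1.34 ± 0.08 higher in N18 than in BV2 (adjusted p = 7.2e-09), at least 2.1-fold since it was below the threshold in BV2. Fzd6 (0.87 ± 0.06), Fzd4 (0.87 ± 0.09), Fzd1 (0.77 ± 0.07) and Fzd7 (0.70 ± 0.12) were also called higher in N18, with adjusted p of 1.56e-08, 1.26e-06, 4.33e-07 and 0.000253. Fzd6, Fzd4 and Fzd1 were not detected in BV2, with bounds of at least 1.1-fold, 1.6-fold and 1.6-fold, while Fzd7 was detected in both lines. Fzd6 was above its threshold in 1 of its 3 probes in N18 and lost the call with the median of the probes. Fzd8 was lower in N18, at -0.62 ± 0.06 (adjusted p = 4.09e-07), where it was not detected. Its call was lost when plate 1 of BV2 was left out (-0.61, adjusted p = 3e-06) because it then passed detection in neither line, and also with the median of the probes. Fzd10 was called higher in BV2 (-0.34 ± 0.10, adjusted p = 0.0105), but the sign turned without normalization (0.039) and relative to the seminal proteins (0.069). Fzd2 and Fzd5 were not called.

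Of the 19 ligands, 2 were called higher in N18 than in BV2 and none lower. Wnt3, a ligand of the beta-catenin branch, was 10.90, 11.02, 11.04 and 10.92 in N18 and 9.81, 10.14, 10.01 and 10.01 in BV2 on the normalized scale, a difference of 0.97 ± 0.07 (adjusted p = 6.67e-08), and was not detected in BV2. Wnt11 was 0.46 ± 0.06 higher in N18 (adjusted p = 2.02e-05) and was not detected in BV2 either. The bounds were at least 1.3-fold for Wnt3 and 1.1-fold for Wnt11. The other 17 ligands were not called, with differences from -0.46 to 0.10 on the log2 scale, where Wnt4, Wnt6, Wnt8a and Wnt8b had an adjusted p under 0.05 but were detected in neither line.

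Inside the cell the picture differed by gene. Dvl3, which carries the signal from the receptor, was 13.18, 13.08, 13.05 and 12.79 in N18, 11.63, 11.71, 11.41 and 11.41 in BV2 and 12.94, 13.07, 12.18 and 12.53 on the plates labelled AtT20. It was 1.48 ± 0.11 higher in N18 than in BV2 (adjusted p = 5.74e-08) with no overlap. Dvl1 was 11.24, 11.43, 11.51 and 11.25 in N18, 10.89, 10.86, 10.56 and 10.76 in BV2 and 10.63, 9.84, 10.03 and 9.80 on the plates labelled AtT20, and was 0.59 ± 0.09 higher in N18 than in BV2 (adjusted p = 9.56e-05). Dvl2 was 10.93, 10.90, 10.89 and 10.84 in N18 and 10.90, 11.00, 10.89 and 10.82 in BV2 and was not called, with a difference of -0.01 ± 0.07 (adjusted p = 0.894). Its 3 probes disagreed in N18 minus BV2, at 0.65, -0.27 and -0.27. On the plates labelled AtT20 Dvl2 was 12.31, 12.39, 12.34 and 12.44.

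In the destruction complex, Axin2, itself a common target of Wnt signaling that feeds back on it, was 11.66, 11.87, 11.67 and 11.68 in N18, 10.21, 10.43, 10.58 and 10.40 in BV2 and 11.55, 11.44, 11.35 and 11.45 on the plates labelled AtT20. It was 1.31 ± 0.09 higher in N18 than in BV2 (adjusted p = 2.02e-08), at least 2.2-fold. Its relative Axin1 was 11.69, 11.59, 11.56 and 11.56 in N18, 11.61, 11.81, 11.76 and 11.62 in BV2 and 11.02, 10.83, 10.34 and 10.88 on the plates labelled AtT20, and the N18 and BV2 values overlapped (-0.10 ± 0.09, adjusted p = 0.311). Whether the 2 genes differed from each other was not tested. Apc was 12.76, 12.73, 12.60 and 12.52 in N18, 12.20, 12.15, 12.32 and 12.06 in BV2 and 11.27, 10.94, 10.71 and 10.60 on the plates labelled AtT20, 0.47 ± 0.10 higher in N18 than in BV2 (adjusted p = 0.00084). Ctnnb1, the beta-catenin transcript, was 15.03, 15.42, 15.39 and 15.27 in N18, 15.42, 15.34, 15.36 and 15.45 in BV2 and 14.33, 13.99, 14.08 and 14.06 on the plates labelled AtT20. The N18 and BV2 values overlapped and Ctnnb1 was not called (-0.11 ± 0.08, adjusted p = 0.272), and no probe of the 49 genes was at the upper limit of the scanner.

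**Figure D3:**
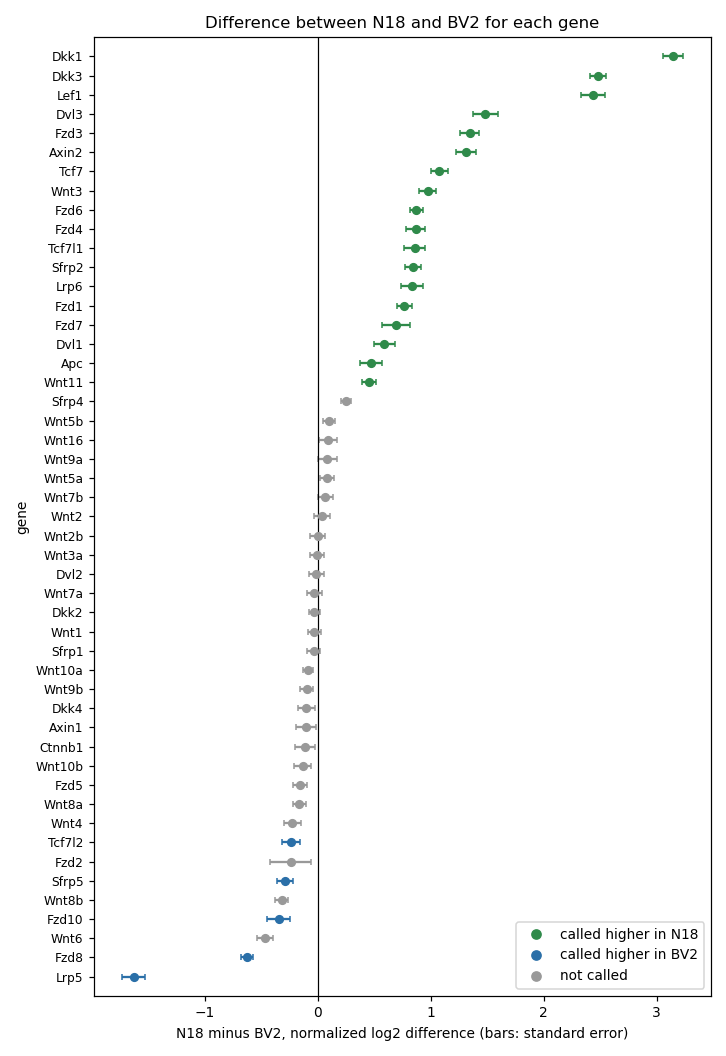
Difference N18 minus BV2 on the normalized log2 scale (horizontal axis) for each of the 49 genes (rows, ordered by difference), with standard errors as bars, 18 called higher in N18 in green, 5 called higher in BV2 in blue and the rest gray. Dkk1, Dkk3 and Lef1 lie to the right of the others at 2.44 to 3.15, and Lrp5 to the left at -1.63.

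Against the plates labelled AtT20, the calls depended on the scaling, and those that held under 3 scalings (quantile normalization, none, and levels relative to the seminal proteins) are given as results. For these results the call had to hold, while the sizes given are those after quantile normalization. The 3 comparisons share plates and are not independent of each other. With quantile normalization 6 genes were called higher in BV2 than in AtT20 (12.2%, against 23.1% of all genes and targets) and 20 lower (40.8%, against 23.2%), and 14 were called higher in N18 than in AtT20 (28.6%, against 25.4%) and 18 lower (36.7%, against 23.5%). The share called higher among the calls against AtT20 was 23.1% for BV2 and 43.8% for N18, and 47.1% and 80% relative to the seminal proteins. Over all genes and targets the corresponding shares were 49.9% and 51.9%, and 84.2% and 88.7%. The median over all genes and targets, BV2 minus AtT20, was -0.23 after quantile normalization, -1.08 without it and 0.28 relative to the seminal proteins, and for N18 minus AtT20 it was -0.25, -0.85 and 0.54. Medians over the seminal proteins were -0.34, -1.37 and -0.004 for BV2 and -0.42, -1.41 and -0.02 for N18, in the same order. After quantile normalization the 13 genes detected in no line differed by -1.09 to -0.03 in BV2 and -1.21 to -0.07 in N18. Medians over the 49 genes were -0.73, -1.46 and -0.10 for BV2 and -0.58, -1.02 and 0.37 for N18. Under the 3 scalings together, 4 were higher in BV2 (8.16%, against 11.4%) and 9 lower (18.4%, against 7.27%), and 9 were higher in N18 (18.4%, against 18.2%) and 6 lower (12.2%, against 5.99%). After quantile normalization the 3 probes all differed in the same direction in 20 of the 26 calls for BV2 and 17 of the 32 for N18. Among the calls under the 3 scalings they did so in 13 of 13 for BV2 and 12 of 15 for N18. The exceptions in N18 were Axin2, Tcf7l1 and Wnt5a.

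**Figure D4:**
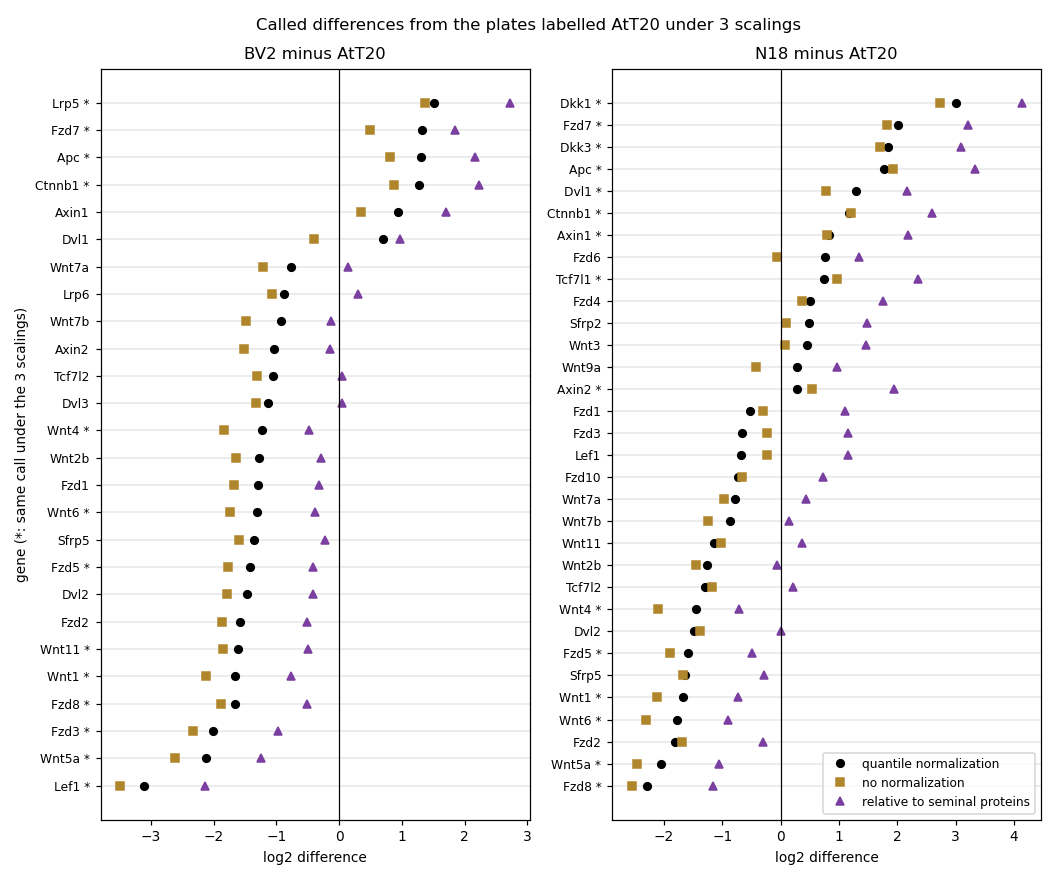
Differences from the plates labelled AtT20 (horizontal axes, log2) for the genes called after quantile normalization, 26 for BV2 (left) and 32 for N18 (right), under 3 scalings shown as circles, squares and triangles. Asterisks mark the genes with the same call under the 3 scalings, 13 for BV2 and 15 for N18, and the triangles lie to the right of the circles.

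The genes that kept the call as lower in BV2 or N18 than on the AtT20-labelled plates were ligands, frizzled receptors and, for BV2, Lef1. Their differences are given after quantile normalization and were larger without it. Relative to the seminal proteins they were smaller, at -2.13 to -0.38 in BV2 and -1.16 to -0.50 in N18. For Lef1, Fzd3, Wnt11 and Fzd8 in BV2 these smaller values were -2.13, -0.97, -0.49 and -0.52. Lef1 was lower in BV2, at -3.12 ± 0.16 (adjusted p = 1.03e-09), at least 3.3-fold, while its difference in N18 was called lower by quantile normalization and changed sign relative to the seminal proteins. Its probes disagreed in N18 minus AtT20, at -1.01, 1.25 and -1.96. Fzd3 was lower in BV2 at -2.02 ± 0.20 (adjusted p = 1.02e-06), at least 1.6-fold, and Wnt11 at -1.61 ± 0.13 (adjusted p = 1.04e-07), at least 1.1-fold. All 3 genes were below the threshold in BV2, and a difference from a line where a gene was not detected is a difference from background. Fzd8, a receptor known from brain development, was 12.06, 12.25, 12.12 and 12.43 on the plates labelled AtT20, 10.60, 10.58, 10.54 and 10.51 in BV2 and 9.86, 9.95, 9.90 and 10.03 in N18 on the normalized scale. It was lower in BV2, at -1.66 ± 0.13 (adjusted p = 8.22e-08) and lower in N18, at -2.28 ± 0.12 (adjusted p = 4.75e-09), at least 1.3-fold since it was not detected there. Fzd2, called against both by quantile normalization, was 12.49, 13.08, 12.66 and 13.10 on the plates labelled AtT20, 11.04, 11.92, 11.34 and 10.73 in BV2 and 11.06, 11.02, 10.98 and 11.01 in N18, and its call did not hold relative to the seminal proteins.

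Wnt5a, a ligand that mostly signals without beta-catenin, was 12.07, 11.84, 12.33 and 12.01 on the plates labelled AtT20, 9.90, 10.03, 9.99 and 9.82 in BV2 and 9.94, 10.11, 10.00 and 10.02 in N18. It was lower in BV2, at -2.13 ± 0.14 (adjusted p = 1.04e-08) and lower in N18, at -2.05 ± 0.13 (adjusted p = 1.9e-08), at least 1.4-fold and 1.3-fold, since it was detected in neither. Its signal came from a single probe, since the 3 probes had mean levels of 2.20, -0.03 and -0.12 on the plates labelled AtT20. With the median of the probes the calls were lost, at -0.51 (adjusted p = 0.104) and -0.41 (adjusted p = 0.195). Wnt1, a founding member of the family, was 11.83, 11.45, 11.77 and 11.59 on the plates labelled AtT20, 10.08, 9.99, 9.88 and 10.07 in BV2 and 9.89, 10.01, 10.01 and 10.00 in N18. It was lower in BV2, at -1.65 ± 0.13 (adjusted p = 7.58e-08) and lower in N18, at -1.68 ± 0.12 (adjusted p = 5.78e-08), again from 1 of 3 probes (0.05, 1.54 and 0.04), and was not detected with the median of the probes. It was below the threshold in BV2 and in N18, with a bound of at least 1.1-fold for BV2 and none above 1 for N18. Fzd5 was lower at -1.43 ± 0.14 in BV2 (adjusted p = 6.18e-07) and at -1.58 ± 0.13 in N18 (adjusted p = 3.07e-07). Wnt6 was lower at -1.31 ± 0.14 in BV2 (adjusted p = 1.33e-06) and at -1.77 ± 0.12 in N18 (adjusted p = 3.38e-08). Fzd5 and Wnt6 were likewise not detected in BV2 or N18, and no bound above 1 could be given for them. On the plates labelled AtT20 Wnt6 had a level of 0.46 ± 0.14 and was above the threshold on 2 of 4. Wnt4, also undetected in BV2 and N18 and without such a bound, was lower in both as well, but it was only just above its threshold (a level of 0.37 ± 0.22, 2 of 4 plates), and the call was lost without plate 2 (-1.18 in BV2, -1.40 in N18) or plate 4 (-1.20 and -1.42) of AtT20.

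**Figure D5:**
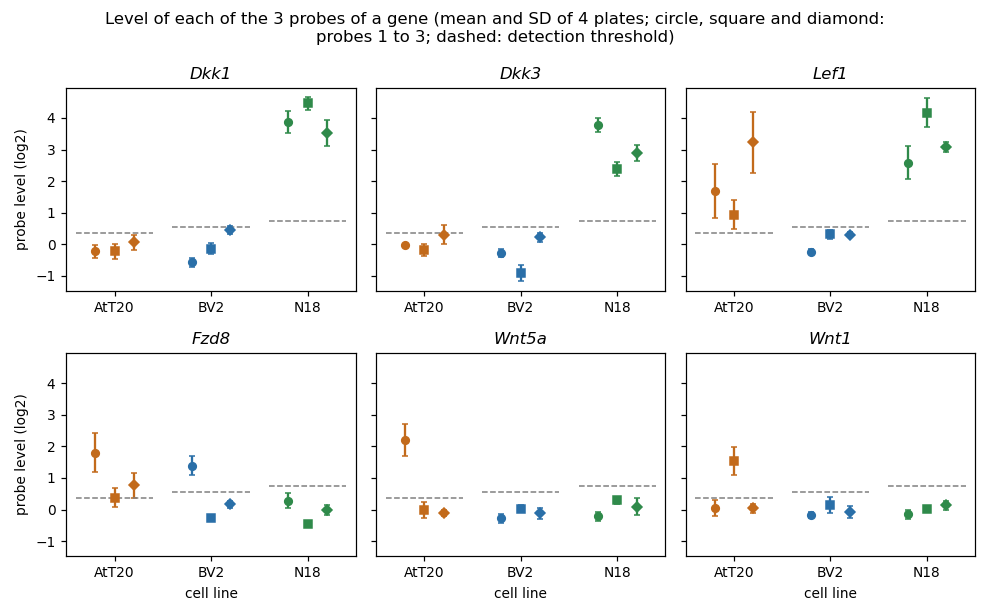
Mean level and SD over 4 plates (vertical axis, log2) of each of the 3 probes of 6 genes in the 3 lines, with the threshold of each line dashed. The 3 probes of Dkk1 and Dkk3 are all high in N18, while 1 probe of Wnt5a (2.20) and 1 of Wnt1 (1.54) are above the threshold on the plates labelled AtT20.

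The genes called higher than on the plates labelled AtT20 under the 3 scalings included Ctnnb1, Apc and Fzd7 in both lines, and Lrp5 in BV2, given above. Ctnnb1 was higher by 1.28 ± 0.10 in BV2 (adjusted p = 7.03e-08) and by 1.16 ± 0.11 in N18 (adjusted p = 1.09e-06). Apc was higher by 1.30 ± 0.16 in BV2 (adjusted p = 6.09e-06) and by 1.77 ± 0.15 in N18 (adjusted p = 3.98e-07). Fzd7 was higher by 1.31 ± 0.14 in BV2 (adjusted p = 1.31e-06) and by 2.01 ± 0.16 in N18 (adjusted p = 1.61e-07), and was not detected on the plates labelled AtT20, so that the N18 value was at least 2.1-fold higher and no bound above 1 could be given for BV2. Apc was not detected there either, with bounds of at least 1.5-fold and 2.6-fold. In N18, Dkk1 (3.01 ± 0.20, adjusted p = 3.18e-08), Dkk3 (1.84 ± 0.12, adjusted p = 4.25e-08), Dvl1 (1.28 ± 0.17, adjusted p = 1.95e-05), Axin1 (0.83 ± 0.15, adjusted p = 0.000236) and Tcf7l1 (0.74 ± 0.16, adjusted p = 0.00113) were also higher, with bounds of at least 3.7-fold for Dkk1, 2.0-fold for Dkk3 and 1.2-fold for Axin1. Dvl1 was likewise not detected on the plates labelled AtT20, and no bound above 1 could be given for it. Axin1 was no longer called when its probes were pooled by their median (0.20, adjusted p = 0.417). Axin2 was called higher in N18 by 0.27 ± 0.12 (adjusted p = 0.0483), a call close to the limit that was lost when any of the N18 plates or AtT20 plates 2, 3 or 4 was left out (0.22 to 0.29, adjusted p up to 0.145).

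Other genes of the pathway, taken from lists by role, were compared between N18 and BV2. Of 90 listed, 81 had probes, of which 28 were called higher in N18 (34.6%, against 21.2% of all genes and targets) and 16 lower (19.8%, against 23.0%). Under the 3 scalings 28 were again higher, a call that no gene or target lost, and 5 were lower (6.17%, against 6.89%). The counts by list that follow are read against these same backgrounds. Among 19 cytoplasmic genes 9 were called higher and 2 lower, and among 12 nuclear genes 6 were higher and 1 lower. Of 16 genes of the membrane and of Wnt secretion, 3 were higher and 2 lower, and of 7 further secreted inhibitors none was higher and 1 lower. Among 15 genes of planar polarity and calcium signaling 7 were higher and 5 lower, of which 1 was also lower under the 3 scalings, and among 12 common target genes 3 were higher and 5 lower, of which 3 were. Under the 3 scalings 1 gene of the membrane list was lower, and none of the cytoplasmic, nuclear or inhibitor lists. The largest calls toward N18 were Myc, a growth-promoting transcription factor, at 4.07 ± 0.12 (adjusted p = 2.33e-12), Cxxc4, a dishevelled inhibitor, at 1.65 ± 0.07 (adjusted p = 1.98e-10), Ptk7, a planar polarity receptor, at 1.56 ± 0.09 (adjusted p = 3.49e-09) and Lgr5, an R-spondin receptor and itself a target gene, at 1.28 ± 0.07 (adjusted p = 3.78e-09). None of these 4 was detected in BV2, and they were at least 14.9-fold, 1.8-fold, 2.0-fold and 1.7-fold higher in N18, in that order. The largest toward BV2 were Cd44, a hyaluronan receptor, at -2.72 ± 0.08 (adjusted p = 3.68e-12), Id2, an inhibitor of helix-loop-helix factors, at -2.06 ± 0.09 (adjusted p = 2.54e-10), Fosl1, a component of AP-1, at -1.82 ± 0.12 (adjusted p = 1.11e-08) and Invs, inversin, at -0.69 ± 0.11 (adjusted p = 0.000107). Cd44 and Id2 were below the threshold in N18, where they were at least 4.9-fold and 3.7-fold lower, and the call of Invs did not hold under the 3 scalings.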

How the data were processed

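Mouse NimbleGen arrays carried RNA of 12 plates, 4 for each of the labels AtT20, BV2 and N18. The deposited files hold, for each of 72000 probes, the Cy3 intensity that the authors transformed to log2, with the probes of a target separate. Neither background subtraction nor normalization between arrays was stated for these values, and the number of arrays limits the precision. The plates were grown and extracted separately, and arrays are made 4 to a slide. Which plates shared a slide is not known here, so slide and line cannot be told apart.

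Probes of each of 25631 targets were averaged on the linear scale and put back to log2, and targets were named through RefSeq (17780 matched, 69.4%) and averaged per gene. Detection followed the threshold of the study's statistical methods, 2 SD above 10 seminal proteins. Lines were compared pair by pair by lmFit and trended eBayes of limma (version 3.58.1, R version 4.3.3) on the 8 arrays of the pair, after quantile normalization of the 12 arrays, with Benjamini-Hochberg adjustment over 25128 genes and targets. Folds given as "at least" use the threshold of the line in which a gene was not detected, as the smallest bound of the 3 scalings. Plates with the same number were not treated as pairs. The correlations of their deviations between lines were -0.105 to 0.319, the highest for plate 2 of N18 and BV2. The limma fit was tested on simulated gene values, and the detection rule on a constructed case. Pooling of probes, normalization and the rule of the 3 scalings were not tested in this way. Tables and figures were made with Python 3.11.15, pandas 2.3.3 and matplotlib 3.10.9.

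The genes, lists and tests were chosen with earlier results of these data known. Plate values are given for genes called between N18 and BV2 with a difference of at least 1, for the pathway core, and for at most 4 genes detected on the plates labelled AtT20 and called against both other lines. At most 4 genes of the other lists are named per direction. Wnt3, and other genes with a value but outside this rule, were chosen after their values were seen, as was the rule of the same call under 3 scalings. HEK293 arrays and qPCR values were not used here.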

Additional observations from a re-analysis of the deposited data

Results flagged for a closer look

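In 5 of the 60 groups of 4 plates examined (the 20 genes given plate by plate, in 3 lines), 1 plate lay farther from the others than the limit of Dixon's test for 4 values, which chance passes in about 1 in 20 groups. On the normalized log2 scale, Dkk3 was 10.71 on plate 2 of AtT20, with the others at 10.35 to 10.40. Axin2 was 11.87 on plate 2 of N18 (others 11.66 to 11.68) and Lrp6 was 13.44 on the same plate (others 13.28 to 13.30). Tcf7l1 was 10.70 on plate 3 of AtT20, below the others at 11.28 to 11.40, and Wnt1 was 9.89 on plate 1 of N18, below the others at 10.00 to 10.01.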

How the results depend on the processing

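The count of genes higher in N18 than in BV2 (18) stayed within 1.5 times under each alternative run except a difference of at least 1 (7). The count lower in N18 (5) was 2 without normalization, with levels set against the seminal proteins, by averaging log2 probes, in a fit on all 12 arrays and under the 3 scalings, 10 by adjusted p alone and 1 with a difference of at least 1. Fzd10 turned to 0.039 without normalization and 0.069 relative to the seminal proteins, and Tcf7l2 to 0.14 and 0.17. Between BV2 and AtT20 the count lower (20) was 9 relative to the seminal proteins, 13 with the median of the probes, 35 by adjusted p alone and 9 under the 3 scalings. Between N18 and AtT20 the count higher (14) was 24 relative to the seminal proteins, 6 with a difference of at least 1 and 9 under the 3 scalings, and the count lower (18) was 6, 29 by adjusted p alone and 6 under the 3 scalings. Detection (24, 16 and 27) was 16, 9 and 21 with olfactory receptor controls. It was 17, 12 and 24 with the median of the probes and 17, 12 and 27 with all 4 plates above. With at least 2 probes above it was 16, 11 and 24. The cause of these changes was not tested, except that adjusted p alone drops the detection rule. With each plate left out in turn, detected genes numbered 20 to 24 in AtT20, 15 to 17 in BV2 and 27 in N18. Those called higher were 6 for BV2 and 11 to 14 for N18 against AtT20, and 18 for N18 against BV2, and those called lower 17 to 21, 15 to 18 and 4 to 6. Tcf7l2 in N18 against BV2 lost its call without N18 plate 1 or 2 or BV2 plate 2 (-0.20 to -0.21, adjusted p 0.0517 to 0.0653). With the plate number as a replicate block, the counts were 6 higher and 20 lower for BV2 against AtT20, 12 and 18 for N18 against AtT20, and 18 and 5 for N18 against BV2. Over 51 differences (the 23 N18 against BV2 calls and the 13 and 15 against AtT20 that had the same call under the 3 scalings), 963 values under the alternatives kept direction and call, 53 kept the direction alone and 4 turned. Part of the 963 was fixed in advance. The calls against AtT20 were chosen to hold without normalization and relative to the seminal proteins, which are also among the alternatives. Adjusted p alone could not lose a call. Taking the highest target left the differences unchanged, as each gene had 1 target. Among all calls against AtT20, 4 for BV2 and 9 for N18 had the opposite sign relative to the seminal proteins. Below the detection thresholds a low level cannot be told from background.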
